A study of Mus musculus with 14 samples.

Results

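Serum response factor (SRF), its 2 myocardin-related cofactors and 7 contractile genes that are classic SRF targets were followed in Ocy454 cells. The 10 genes were taken by name, as a list chosen with earlier results of these data known: Srf, Mrtfa (listed under its older name Mkl1 in the differentiation table), Mrtfb (listed as Mkl2), Acta2, Actg2, Tagln, Cnn1, Myl9, Vcl and Tpm1. They are 10 of the 39179 genes of the differentiation table. Ocy454 is a mouse osteocyte-like cell line that carries a thermosensitive large T antigen, so it divides at 33 °C and differentiates after a shift to 37 °C. The differentiation experiment holds 8 libraries of unsorted cells, 2 each after 1, 7, 10 and 14 days at 37 °C. The sorting experiment holds 6 libraries from cultures kept for 17 days at 37 °C, 3 of CD61 low and 3 of CD61 high cells, the 10% of live cells with the weakest and the 10% with the strongest CD61 staining. CD61 is integrin beta 3, a surface protein that the study used to tell more mature cells from less mature ones. All groups are the same cell line with no gene altered, so no group is a manipulation of SRF.

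SRF is a transcription factor that binds a short DNA element called the CArG box. It works with either of 2 families of partners. The MRTF cofactors are held in the cytoplasm by monomeric actin and enter the nucleus when RhoA signalling drives actin into filaments, where they switch on contractile and cytoskeletal genes. The ternary complex factors, such as ELK1, answer to growth factor signalling and switch on immediate early genes. In bone, osteoblasts that become osteocytes rebuild their actin skeleton as they form dendritic processes. The activity of SRF is set largely by its partners and their location, which RNA levels do not measure.

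The genes were placed on the GRCm39 build with the GENCODE M39 annotation. Srf lies on the minus strand of chromosome 17, from 46857767 to 46867119. Mrtfa lies on chromosome 15 (80896482 to 81074969, minus strand) and Mrtfb on chromosome 16 (13073858 to 13235394, plus strand). Acta2 is on chromosome 19 (34217737 to 34232990, minus strand), Actg2 on chromosome 6 (83489887 to 83513551, minus strand) and Myl9 on chromosome 2 (156617084 to 156623579, plus strand). Chromosome 9 holds Tagln (45840909 to 45847404, minus strand), Cnn1 (22010512 to 22020926, plus strand) and Tpm1 (66929870 to 66956953, minus strand). Vcl is on chromosome 14 (20979449 to 21083758, plus strand).

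The promoter table from RefSeq (GRCm38.p6 build) held 8 of the 10 genes, with 11 annotated starts among them. Actg2 and Tagln are not in it. The 250 bases before each start were searched for the CArG box, which reads CC, then 6 bases that are each A or T, then GG, so that a match on 1 strand is also a match on the other. Srf held 2 boxes, and Myl9 and Vcl held 1 each. A CArG box was present in 3 of the 11 windows, against 1.47% of all 32851 windows in the table. The genes were chosen as SRF, its cofactors and known SRF targets, so this share is not independent of the choice. Some windows of Mrtfb also overlap each other. At least 2 boxes, as in Srf, were present in 0.0183% of all windows. Boxes with exactly 1 other base among the central 6 were also searched. They were present in 7.24% of all windows, and Acta2 held 2, Myl9 1 and 1 of the 2 starts of Mrtfa 1. The windows of Mrtfb, Cnn1 and Tpm1 held neither form. In the stretches that carry the boxes of Srf, Vcl, Myl9 and Acta2, full boxes and boxes with 1 other base are in capitals. The stretches were chosen by their letters alone and are shown 5′ to 3′ on the strand of the gene. On GRCm38.p6 they are chr17:46556205-46556254 on the minus strand for Srf, chr14:20929161-20929190 on the plus strand for Vcl, chr2:156775293-156775384 on the plus strand for Myl9 and chr19:34255388-34255467 on the minus strand for Acta2.
Srf: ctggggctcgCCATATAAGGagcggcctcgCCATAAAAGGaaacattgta
Vcl: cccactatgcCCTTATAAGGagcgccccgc
Myl9: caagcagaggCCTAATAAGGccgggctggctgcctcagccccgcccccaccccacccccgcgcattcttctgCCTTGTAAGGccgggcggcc
Acta2: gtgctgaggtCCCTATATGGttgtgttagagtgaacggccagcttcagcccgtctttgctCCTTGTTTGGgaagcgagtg

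The boxes of Srf begin 82 and 62 bases before the start, that of Vcl 227 bases before it, those of Myl9 161 and 99 bases before it and those of Acta2 84 and 34 bases before it. A match is a description of the letters only, and binding was not measured. Of the windows of genes called lower at day 10 than at day 1, 1.91% held a full CArG box, and of the windows of all genes tested 1.26% did.

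The differentiation libraries held 27518605 to 34311238 reads and the sorted libraries 18815602 to 19220064 estimated counts. A gene was said to differ at a Benjamini-Hochberg adjusted p below 0.01 over all genes tested, and was called when its log2 fold change (Log2FC) was also above 1 or below -1. Markers of skeletal muscle, endothelium and fat cells were near 0 in every library, with summed levels of at most 0.439, 0.861 and 0.755 CPM (reads of a gene scaled to a common library total). Of the 5 macrophage markers Adgre1 was at 0 in all 14 libraries, and the list summed to 1.74 to 4.93 CPM during differentiation. Of the 9 osteoblast and osteocyte markers, 8 were tested and 7 were higher at day 14 than at day 1 (all genes, 32.6%). The other, Col1a1, was lower (all genes, 36%). The list summed to 35393 to 35440 CPM at day 1 and to 25425 to 30647 CPM at day 14. In bulk RNA, fewer cells that express a gene and less of its RNA per cell cannot be told apart.

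The first comparison asked how the contractile programme moves as the cells differentiate. Acta2, Actg2, Tagln and Myl9 fell steeply in the first 10 days and rose again in part by day 14, whereas Srf itself stayed between 116.3 and 134.9 CPM through day 10 and ended higher. Acta2 fell to 2.39% of its day 1 level at day 10, the most negative Log2FC of all 12725 genes tested. Tpm1 fell less, Vcl moved little and Cnn1 was close to absent.

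**Figure D1:**
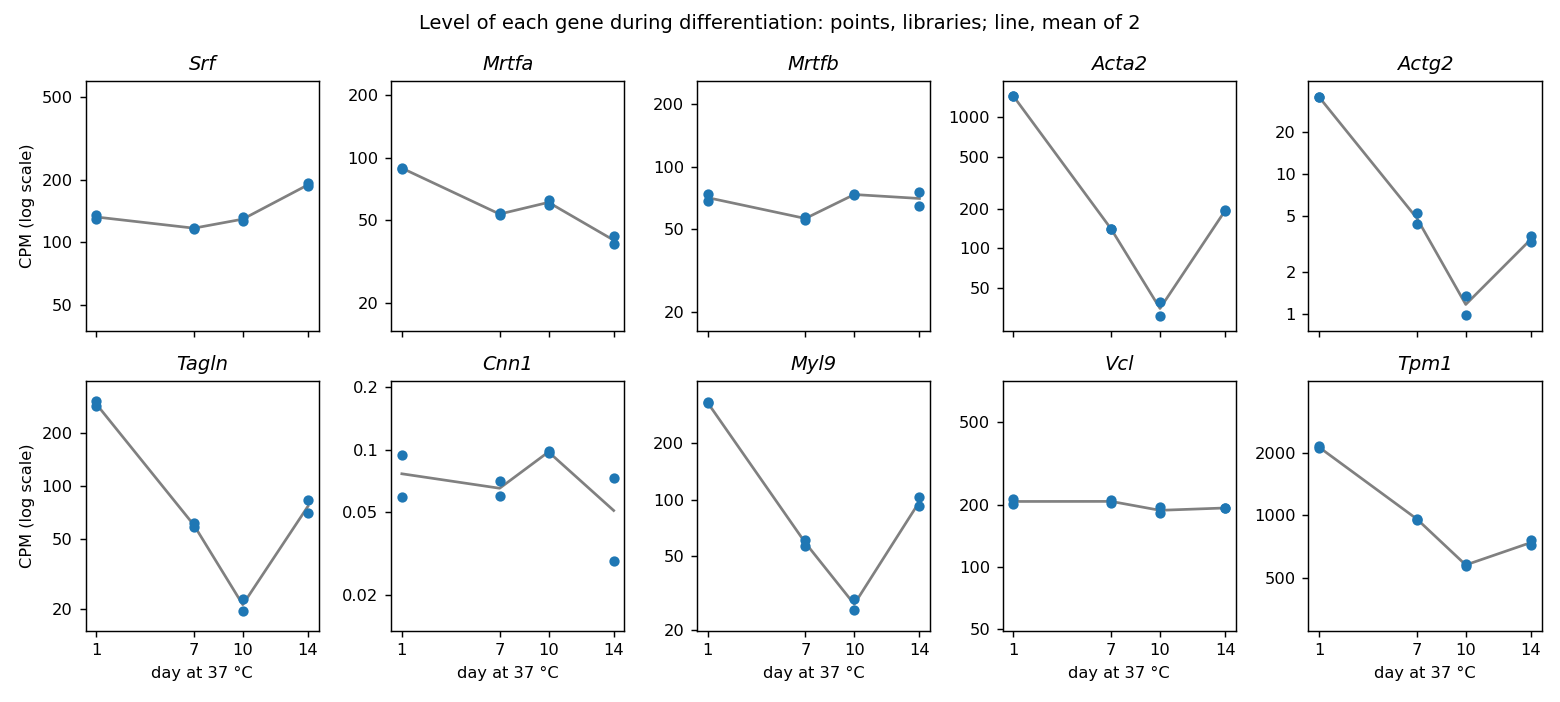
CPM of each of the 10 genes (vertical axes, log scale, each with its own range of at least 16-fold) against the day at 37 °C, with 1 point per library and a line through the mean of 2 libraries. Acta2, Actg2, Tagln and Myl9 have their lowest level at day 10 and a higher one at day 14, Tpm1 has a shallower dip, Srf is highest at day 14, Vcl has means of 187.8 to 207.3 CPM, and Cnn1 never exceeds 0.0985 CPM.

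Acta2 encodes smooth muscle alpha actin, the actin of contractile myofibroblasts and smooth muscle. It stood at 1449.74 and 1454.25 CPM in the 2 libraries of day 1, at 140.8 and 139.8 CPM at day 7 and at 38.9 and 30.4 CPM at day 10. Day 14 had 192.2 and 195.6 CPM. The libraries of the 4 days do not overlap, and the 2 libraries of day 14 lie above both of day 7. The mean fell from 1452 ± 3.19 CPM (SD, n = 2) at day 1 to 34.6 ± 5.97 CPM (SD, n = 2) at day 10, a 41.9-fold difference (Log2FC -5.36, SE 0.06, adjusted p = 1.1e-29 by limma). It was then 5.60-fold higher at day 14 than at day 10 (Log2FC 2.46, SE 0.06, adjusted p = 3.6e-21), which brought it to 13.4% of the day 1 level. Even the lowest library, at day 10, held 944 reads of Acta2, so counting error is small there.

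Tagln encodes transgelin (SM22 alpha), an actin-binding protein of smooth muscle. Its levels were 301.1 and 281.1 CPM at day 1, 58.5 and 61.4 CPM at day 7, 22.8 and 19.6 CPM at day 10 and 69.98 and 83.1 CPM at day 14. All 4 days are separate from each other. The drop to day 10 was 13.7-fold (Log2FC -3.72, SE 0.07, adjusted p = 1.3e-25), and the rise from day 10 to day 14 was 3.61-fold (Log2FC 1.80, adjusted p = 6.4e-18).

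Actg2 encodes the gamma actin of enteric smooth muscle and was, per length, far less abundant than Acta2. It stood at 35.9 and 35.7 CPM at day 1, at 5.31 and 4.40 CPM at day 7 and at 0.985 and 1.35 CPM at day 10. Day 14 had 3.26 and 3.60 CPM. The day 10 libraries hold only 30 and 42 reads of it, yet lie below both libraries of every other day. The level at day 10 was 30.6-fold below day 1 (Log2FC -4.09 on the log2(CPM + 1) scale, which understates the change of so low a gene, adjusted p = 5e-21), and day 14 was 2.93-fold above day 10 (Log2FC 1.03, adjusted p = 2.5e-08). Its Log2FC between these days was 0.91 to 1.16 with 1 library left out, so that it was no longer called without the first day 10 library or the second day 14 library.

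Cnn1, which encodes calponin 1, a marker of differentiated smooth muscle, was close to absent. It had 1 to 3 reads in each differentiation library and 18 reads in all of the 250823570 reads of the 8 libraries. In the sorted libraries it had 0 of 114279629 counts, so that, by counting error alone, a level of up to 0.0263 CPM cannot be told from none. It was therefore not tested, and 9 of the 10 genes were.

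Myl9 encodes the regulatory light chain of smooth muscle and non-muscle myosin. It stood at 332.5 and 330.3 CPM at day 1, at 60.8 and 56.5 CPM at day 7 and at 29.3 and 25.8 CPM at day 10. Day 14 had 91.98 and 103.1 CPM. The 4 days again do not overlap. Its level was 12.1-fold lower at day 10 than at day 1 (Log2FC -3.55, SE 0.06, adjusted p = 1.4e-26) and 3.55-fold higher at day 14 than at day 10 (Log2FC 1.79, adjusted p = 2.9e-19).

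Tpm1 encodes alpha tropomyosin, which lies along actin filaments in muscle and non-muscle cells. Its levels were 2106.74 and 2151.41 CPM at day 1, 965 and 954 CPM at day 7, 580.1 and 572.4 CPM at day 10 and 722 and 756 CPM at day 14. It too fell to a minimum at day 10 without any overlap between days, but the drop was 3.69-fold (Log2FC -1.88, SE 0.04, adjusted p = 1.5e-24) and the rise to day 14 was 1.28-fold (Log2FC 0.36, adjusted p = 5.7e-09).

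Vcl encodes vinculin, which links integrins to actin at focal adhesions. It ranged over 200.4 to 213.98 CPM at day 1 and over 181.6 to 193.9 CPM at day 10, and its group means stayed between 187.8 and 207.3 CPM at all 4 days. Only the dip to day 10 passed the threshold (Log2FC -0.14, SE 0.04, adjusted p = 0.0035 against day 1, and Log2FC -0.14, adjusted p = 0.0042 against day 7). Neither passed with no filter (adjusted p = 0.036 and 0.045) or no trend (0.053 and 0.062). The dip against day 7 did not pass without the first library of day 7 (adjusted p = 0.072) or the second of day 10 (0.10). Against day 1 it did not without the first library of day 1 (Log2FC -0.09, adjusted p = 0.11) or the second of day 10 (Log2FC -0.09, adjusted p = 0.091). Vcl holds a full CArG box in its promoter window, as shown above, and did not share the course of Acta2. Myl9 holds a full box as well and did share that course, while the window of Acta2 held no full box. The part of the boxes in these courses was not tested.

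**Figure D2:**
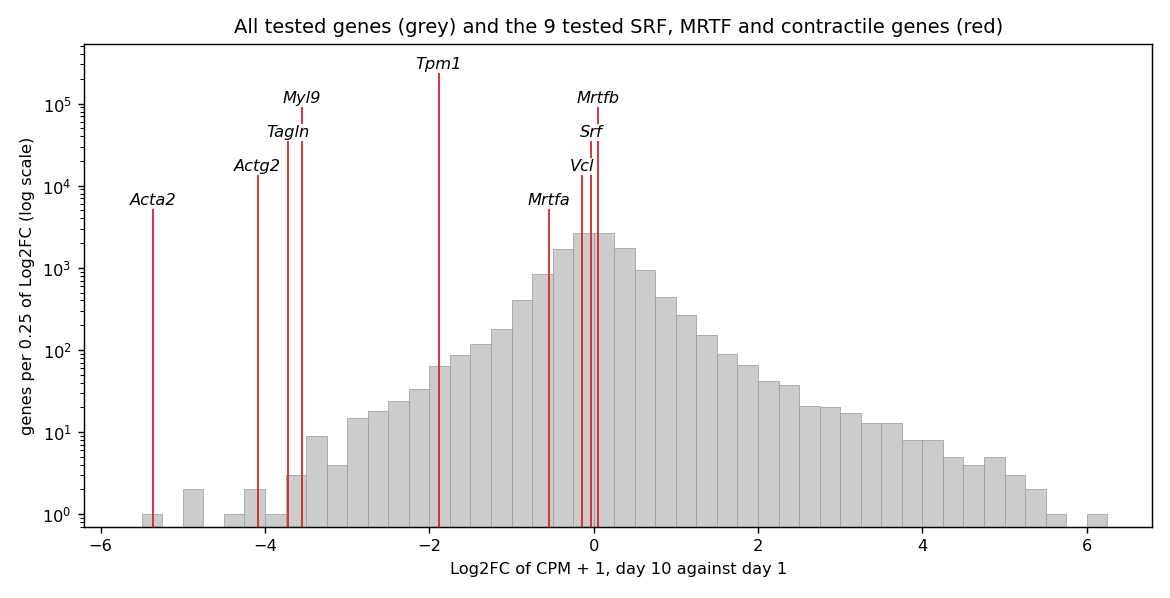
Number of genes (vertical axis, log scale) by the Log2FC of day 10 against day 1 in steps of 0.25, for the 12725 genes tested, with the 9 tested SRF, MRTF and contractile genes as red lines whose heights carry no value. Acta2, Actg2, Tagln and Myl9 lie at the far left end, at Log2FC -5.36, -4.09, -3.72 and -3.55, while Srf and Mrtfb lie near 0.

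Of the 7 contractile genes, 5 were called lower at day 10, 4 of them among the 9 lowest of all genes. By Log2FC from day 1 to day 10, Acta2 ranked 1st, Actg2 6th, Tagln 8th and Myl9 9th from the lowest of the 12725 genes, Tpm1 136th and Vcl 4553rd. From day 10 to day 14, Acta2 ranked 14th from the highest, Tagln 57th, Myl9 60th and Actg2 246th. These 4 genes were called lower at day 10 and called higher again at day 14. Over all genes 29 of 12725 did so (0.228%), and 29 of the 563 genes called lower at day 10 (5.15%). The 2 comparisons share the day 10 libraries, so they are not independent of each other.

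Among the 9 tested genes, 8 were lower at day 7 than at day 1 and none was higher, against 32.0% of all genes tested that were lower. Srf, 1 of the 8, did not pass with no trend (adjusted p = 0.015) or without the first day 1 library (adjusted p = 0.016), which left 7. Of these, 5 were called lower (all genes, 4.62%), and none was called higher (all genes, 4.49%). At day 10, 7 were lower (all genes, 30.3%) and 5 were called lower (all genes, 4.42%). At day 14, 6 were lower (all genes, 36%), all of them called (all genes, 5.9%), and 1 was higher (all genes, 32.6%). These 3 comparisons share the day 1 libraries. From day 7 to day 10, 6 were lower (all genes, 18.9%), of which 4 were called (all genes, 0.786%), and 3 were higher (all genes, 29.8%). From day 10 to day 14, 6 were higher (all genes, 22.9%), of which 4 were called (all genes, 2.09%), and 1 was lower (all genes, 30%). The median Log2FC of the 9 genes was -1.15 at day 7, -1.88 at day 10 and -1.53 at day 14 against day 1, where the median of all genes lay between -0.05 and 0.02.

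The RNA of SRF and its cofactors took other courses. Srf stood at 134.9 and 129.7 CPM at day 1, at 117.4 and 116.3 CPM at day 7 and at 132.3 and 126.0 CPM at day 10. Day 14 had 185.7 and 192.4 CPM. The day 1 and day 10 libraries overlap, and both libraries of day 14 lie above all others. When Acta2 was at its lowest, at day 10, the Srf level was 97.6% of that at day 1 (Log2FC -0.03, adjusted p = 0.45). At day 14 it was 143% of day 1 (Log2FC 0.51, SE 0.04, adjusted p = 1.2e-11).

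Mrtfa and Mrtfb encode MRTF-A and MRTF-B, the cofactors that carry the actin signal to SRF. Mrtfa stood at 88.7 and 89.5 CPM at day 1, 52.7 and 54.2 CPM at day 7, 62.5 and 59.3 CPM at day 10 and 38.3 and 41.7 CPM at day 14. It was called lower at day 14, at 44.9% of the day 1 level (Log2FC -1.14, SE 0.05, adjusted p = 9.3e-17), and it was lower at day 14 than at day 10 (Log2FC -0.59, adjusted p = 2e-10), over the same days in which Acta2, Tagln and Myl9 rose. Mrtfb had group means of 56.3 ± 1.28 to 73.5 ± 0.624 CPM (SD, n = 2). It was lower at day 7 than at day 1 (Log2FC -0.33, adjusted p = 1.5e-05) and its level at day 14 did not differ from that at day 1 (Log2FC -0.02, SE 0.06, adjusted p = 0.80). Per kilobase of the deposited gene length, the ratio of Mrtfa to Mrtfb was 1.43 and 1.55 in the libraries of day 1. It was 1.01 and 0.951 in those of day 10, then 0.60 and 0.761 in those of day 14. With the lengths of Mrtfa-211 and Mrtfb-204, the main transcripts in the sorted libraries, it was 2.29 and 2.49 in the libraries of day 1, and those of day 10 had 1.62 and 1.52, against 0.962 and 1.22 for day 14. Mrtfa was thus above Mrtfb at day 1 with either length, while the order in the second library of day 10 and of day 14 changed with the length used. From day 7 to day 10 Srf (Log2FC 0.14, adjusted p = 0.0036) and Mrtfa (Log2FC 0.18, adjusted p = 0.0032) were slightly higher, but neither passed with TMM (trimmed mean of M values) scaling, at Log2FC 0.07 and 0.12 and adjusted p of 0.10 and 0.046.

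Levels can be set side by side between genes only per length. In CPM per kilobase of the deposited gene length, the order at day 1 was Acta2 (819), Tpm1 (344), Myl9 (274), Tagln (184), Vcl (39.8), Srf (32.4), Actg2 (20.3), Mrtfa (11.7) and Mrtfb (7.87). At day 10 it was Tpm1 (93.2), Vcl (36.1), Srf (31.6), Myl9 (22.7), Acta2 (19.6), Tagln (13.4), Mrtfb (8.15), Mrtfa (8.0) and Actg2 (0.662). At that day the neighbours Myl9 and Acta2, with SDs of 2.05 and 3.37, and Mrtfb and Mrtfa, with SDs of 0.0692 and 0.295, did not differ beyond their spread. The order depends on the lengths taken. That of Tpm1 is 6185 bases as deposited, whereas Tpm1-216, which holds the largest share of its counts in the sorted libraries, has 1898. That of Srf is 4086 bases as deposited and 2616 for its main transcript. With the length of the main transcript of each gene in the sorted libraries, an alternative chosen after seeing the data, Tpm1 stood above Acta2 at every day, at 1122 and 713.5 CPM per kilobase at day 1 and at 303.6 and 17.0 at day 10. Srf then stood above Vcl, at 50.6 and 39.3 at day 1 and at 49.4 and 35.6 at day 10, the reverse of the order above. By these lengths Mrtfa stood above Mrtfb at day 10, at 13.9 and 8.86, and close to Tagln, at 13.3. Per kilobase by either length, Srf RNA was less abundant than Acta2 RNA at day 1 and more abundant at day 10.

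Reads of the actin genes could in principle be shared, since their coding sequences are alike. Of the stretches of 31 bases in the canonical transcript of Acta2, 1.09% occur in another gene's canonical transcript, and 1.18% of those of Actg2. For the 8 other genes the share was at most 1.63% (Mrtfb), and for Srf, Tagln, Cnn1 and Vcl it was 0. Among the paralogs, Actc1 (cardiac actin) was at 0 in 13 of the 14 libraries. Actb (beta actin) went from a mean of 2001.17 CPM at day 1 to 1351.05 CPM at day 10, and to 1816.14 CPM at day 14. Acta1 (skeletal muscle actin) stood at 2.07 to 3.13 CPM through day 10 and at 23.0 and 25.0 CPM at day 14 (Log2FC 3.00 against day 1, adjusted p = 1.7e-18). Actg1 (cytoplasmic gamma actin) had only 1.39 to 3.14 CPM in the differentiation table but 1761 to 3110.21 CPM in the sorted libraries, which were quantified by another method, so its level in the differentiation table may not represent the gene and levels were compared within each table only.

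The profile of Srf over the 8 differentiation libraries was set beside those of all 10313 genes whose mean reached 5 CPM, by the root mean square difference of the centred log2(CPM + 1) values. The closest genes were Pmp22 (0.040), Cutc (0.048), Arl13b (0.051), Sdr39u1 (0.057) and Pxmp4 (0.063). Of the genes of the set the nearest to Srf was Mrtfb, which ranked 1991st (0.246). For Acta2 the closest were Ogn (0.566), Actg2 (0.593), Tagln (0.596), Col27a1 (0.648) and Myl9 (0.652), so 3 of the nearest 5 of 10313 genes were smooth muscle-type or myosin genes of the same set. Ogn encodes osteoglycin, a matrix proteoglycan, and Col27a1 a fibrillar collagen.

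A wider set of SRF-related genes was read beside the 10. Of 29 other contractile and SRF target genes, 28 were tested. At day 10 against day 1, 25 of the 28 were lower (all genes, 30.3%) and 1 was higher (all genes, 33.1%), 10 were called lower (all genes, 4.42%), and the median Log2FC was -0.88. The 25 include Actg1, whose level in the differentiation libraries may not represent the gene. From day 10 to day 14, 17 were higher (all genes, 22.9%) and 6 lower (all genes, 30%), with a median of 0.20. At day 14, 24 were lower than at day 1 (all genes, 36%) and 3 were higher (all genes, 32.6%). The largest falls at day 14 were those of Cnn3, the broadly expressed calponin (350.8 to 147.2 CPM, Log2FC -1.25), Flna, the actin cross-linker filamin A (2662 to 1123 CPM, Log2FC -1.25), and Myh10, non-muscle myosin IIB (391.7 to 174.04 CPM, Log2FC -1.17). The genes that rose were Acta1, Tpm4, another tropomyosin (Log2FC 0.15), and Csrp1, a LIM domain protein of the actin skeleton (Log2FC 0.13).

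The immediate early SRF targets moved the other way. All 8 were tested, and 7 were higher at day 10 (all genes, 33.1%) and 8 at day 14 (all genes, 32.6%) than at day 1, with a median Log2FC of 2.46 at day 14. At day 10, 6 were called higher (all genes, 6.06%), and 7 at day 14 (all genes, 7.51%). Nr4a1, an orphan nuclear receptor, rose from 3.87 to 60.0 CPM (Log2FC 3.65, adjusted p = 2.2e-23). Egr1 and Egr2, zinc finger transcription factors, rose from 25.4 to 192.95 CPM (Log2FC 2.88) and from 3.09 to 26.8 CPM (Log2FC 2.76).

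In the RhoA to actin pathway, all 20 genes were tested, with 8 higher (all genes, 32.6%) and 12 lower (all genes, 36%) at day 14 than at day 1. Gsn, which encodes the filament-severing protein gelsolin, rose from 388.8 to 1048 CPM (Log2FC 1.43, adjusted p = 4.3e-22). Rock1 and Rock2, the kinases that act on myosin light chain downstream of RhoA, rose with Log2FC of 0.61 and 0.69. Pfn2, a profilin, was called lower (90.5 to 44.3 CPM, Log2FC -1.01), and Pfn1 and the formin gene Diaph3 fell with Log2FC of -0.50 and -0.53. Of the 7 SRF partners and MRTF regulators, 5 were tested and none was called at day 14 against day 1 (all genes, 7.51% higher and 5.9% lower), a share near the background. Myocd, the muscle-restricted member of the cofactor family, was at 0 in 12 of 14 libraries. Among the ternary complex factors, Elk3 fell from 62.4 to 33.7 CPM at day 14 (Log2FC -0.87, adjusted p = 1.3e-13) and Elk1 rose from 72.4 to 81.4 CPM (Log2FC 0.17, adjusted p = 0.0012).

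**Figure D3:**
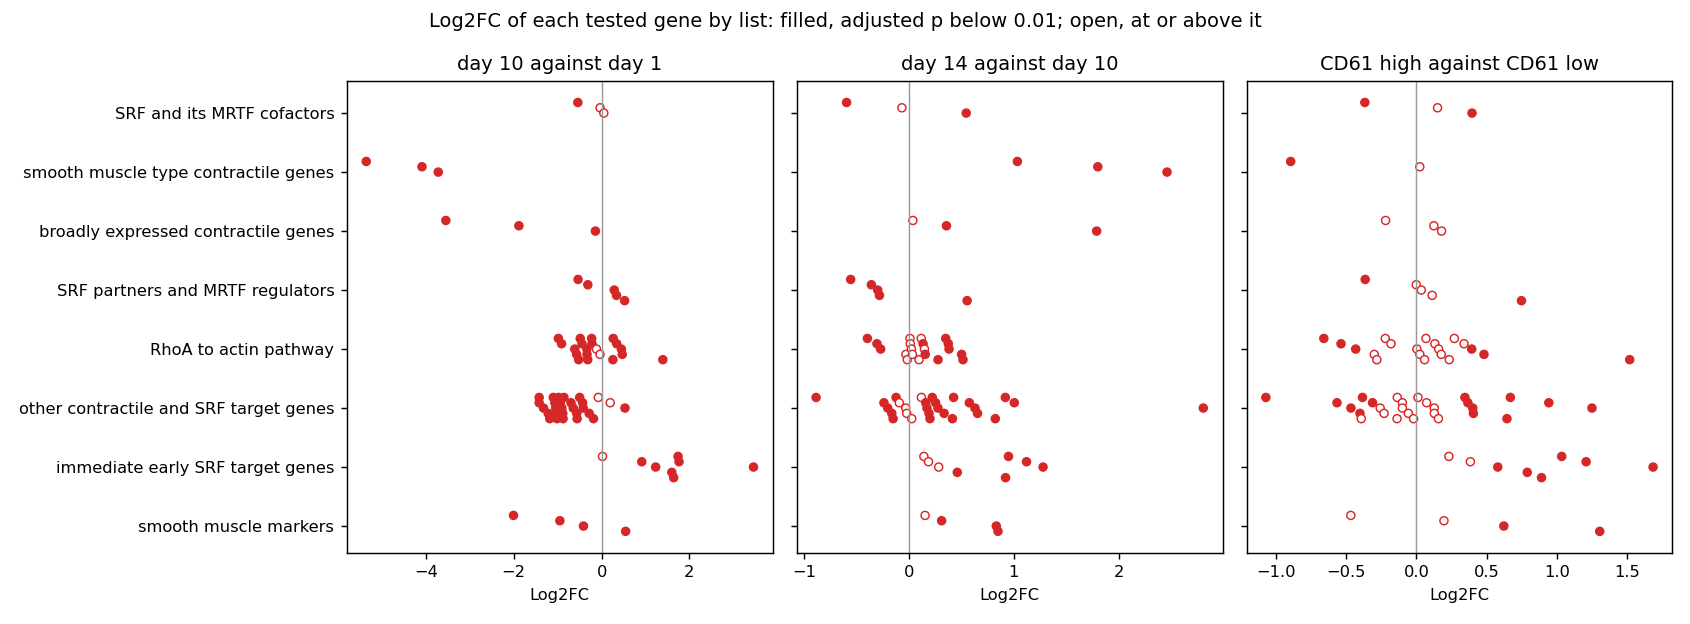
Log2FC (horizontal axes) of every tested gene in 8 lists (rows) for day 10 against day 1, day 14 against day 10 and CD61 high against CD61 low, with filled points for adjusted p below 0.01 and open points otherwise. Acta2, Actg2 and Tagln lie far to the left at day 10 and to the right from day 10 to day 14, while 7 of the 8 immediate early genes are higher at day 10.

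Whether other contractile cells move with these genes was read from marker lists. Of the 7 smooth muscle markers, 4 were tested. Their summed level was 152 to 153 CPM at day 1, 95.6 to 96.6 CPM at day 10 and 119.4 to 121.9 CPM at day 14. Most of it was Smtn (smoothelin), at 67.7 to 91.2 CPM. Myh11, the myosin heavy chain that defines mature smooth muscle, never exceeded 0.466 CPM in the differentiation libraries, and Kcnmb1 and Ppp1r14a were at 0 in 11 and 13 of the 14 libraries. Lmod1 (leiomodin 1) went from a mean of 13.4 CPM at day 1 to 2.57 CPM at day 10, and to 5.36 CPM at day 14. Synm (synemin) fell to day 10 (47.5 to 24.1 CPM, Log2FC -0.95, adjusted p = 2.9e-13) and had 26.9 CPM at day 14. Des (desmin), at low levels, went the other way (0.691 CPM at day 1, 1.45 at day 10 with Log2FC 0.55 and adjusted p = 0.0076, then 3.48 at day 14). Of the 5 pericyte markers 3 were tested, with a summed level of 501 to 512 CPM at day 1, 414 to 432 at day 10 and 548 to 586 at day 14. Among them Pdgfrb fell (418 to 171.9 CPM at day 14), while Cspg4 (22.9 to 176.4 CPM) and Notch3 (65.4 to 218 CPM) rose, and Rgs5 and Abcc9 were at 0 in 8 and 9 of 14 libraries. The part of these markers in the course of Acta2 was not tested.

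The second comparison asked how cells with strong CD61 staining differ from those with weak staining within the same age of culture. Srf was higher and Mrtfa and Tagln were lower in CD61 high cells, all by less than 2-fold, while Acta2, Vcl, Mrtfb, Tpm1 and Myl9 did not pass the threshold. Values are CPM after TMM scaling, and 8 of the 10 genes were tested, since Cnn1 and Actg2 did not reach 5 normalized counts in all 6 libraries.

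The CD61 low libraries had 98.5, 104.8 and 103.5 CPM of Srf, and the CD61 high libraries had 128.0, 138.2 and 137.4 CPM. Every CD61 high library lies above every CD61 low library, with means of 102 ± 3.37 and 135 ± 5.71 CPM (SD, n = 3 each). The difference was 1.32-fold (Log2FC 0.40, SE 0.07, adjusted p = 0.00082 by edgeR's quasi-likelihood test). With scaling by library size alone the median over all genes was a Log2FC of -0.29, and there Srf had a Log2FC of 0.09 (adjusted p = 0.27), which is 0.39 above that median.

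Mrtfa stood at 81.9, 84.7 and 84.9 CPM in CD61 low and at 63.7, 63.0 and 68.4 CPM in CD61 high cells, again without overlap (Log2FC -0.37, SE 0.07, adjusted p = 0.0014). Mrtfb stood at 86.3, 85.1 and 109.1 CPM in CD61 low and at 121.6, 91.1 and 98.5 CPM in CD61 high cells. The 2 groups of Mrtfb overlap, and the difference did not pass (Log2FC 0.15, SE 0.12, adjusted p = 0.34).

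Tagln had the largest difference of the tested genes. It stood at 23.4, 32.0 and 22.9 CPM in CD61 low and at 10.6, 17.2 and 14.4 CPM in CD61 high cells, so the groups do not overlap. The level in CD61 high cells was 53.8% of that in CD61 low cells (Log2FC -0.89, SE 0.18, adjusted p = 0.0023). Without the second CD61 low library, the highest, the Log2FC was -0.73 and no longer passed (adjusted p = 0.011). The libraries hold 180 to 683 counts of Tagln.

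Acta2 stood at 234.03, 267.9 and 221.7 CPM in CD61 low and at 228.8, 288.6 and 218.5 CPM in CD61 high cells. The groups overlap entirely, with means of 241 ± 23.9 and 245 ± 37.8 CPM (SD, n = 3 each, Log2FC 0.02, SE 0.11, adjusted p = 0.87). Acta2 and Tagln, which fell and rose together during differentiation, were thus not alike in the sort, though the difference between them was not tested.

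Myl9 stood at 71.7, 85.2 and 76.1 CPM in CD61 low and at 63.2, 71.6 and 65.3 CPM in CD61 high cells, so that the nearest libraries of the groups are at 71.7 and 71.6 CPM (Log2FC -0.22, SE 0.09, adjusted p = 0.056). Tpm1 had means of 321 ± 22.1 and 363 ± 6.69 CPM (SD, n = 3 each, Log2FC 0.18, SE 0.07, adjusted p = 0.059), and Vcl had means of 202 ± 9.48 and 219.9 ± 14.4 CPM (SD, n = 3 each, Log2FC 0.12, SE 0.07, adjusted p = 0.19). Actg2 held 3 to 24 counts per library, too few for a comparison.

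**Figure D4:**
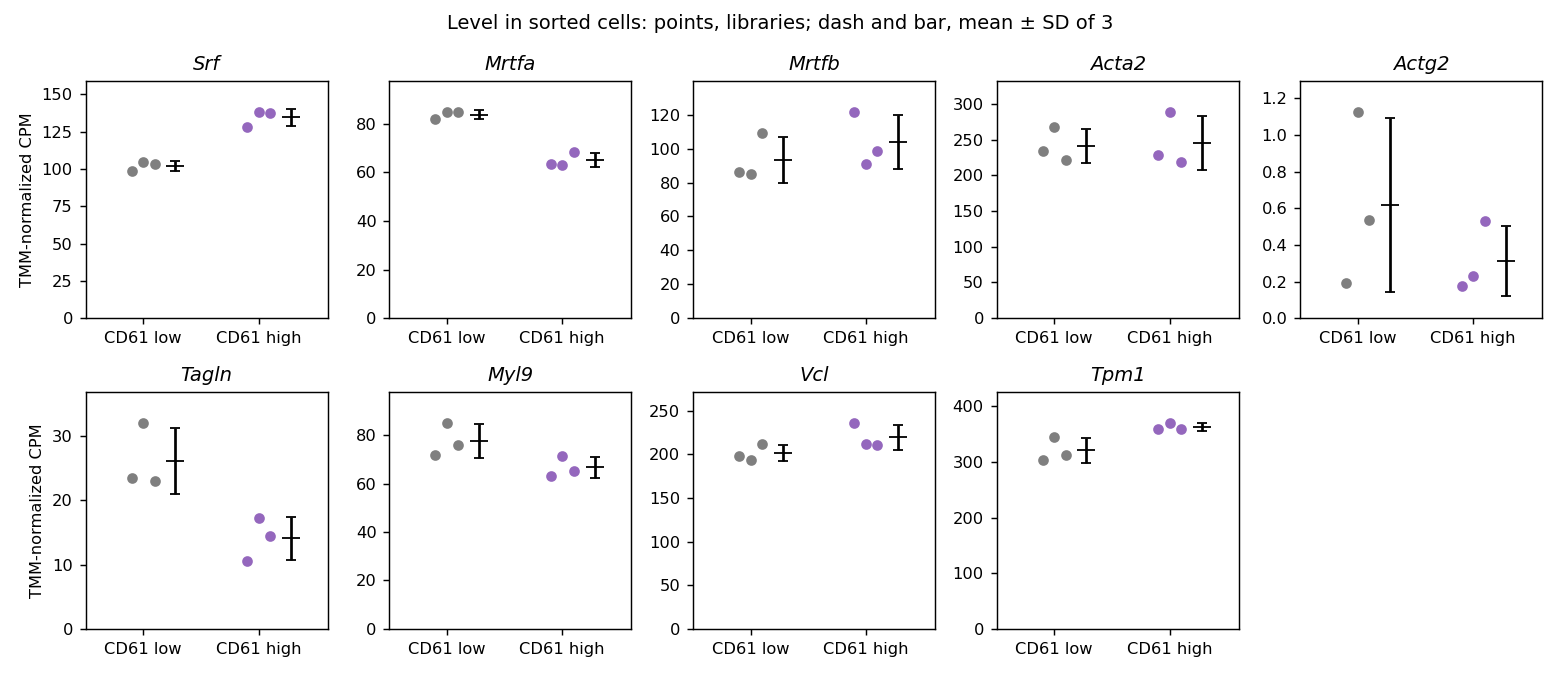
TMM-normalized CPM (vertical axes, from 0) of 9 genes in the 3 CD61 low (grey) and 3 CD61 high (purple) libraries, with the mean ± SD beside them. The points of Srf, Mrtfa, Tagln, Myl9 and Tpm1 do not overlap between the groups, while the points of Acta2 run from 221.7 to 267.9 CPM in CD61 low and from 218.5 to 288.6 CPM in CD61 high cells.

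Of the 8 tested genes, 1 was higher (all genes, 19.4%) and 2 were lower (all genes, 16.0%), shares near the background. The libraries of the groups did not overlap for 5 of the 8 (Srf, Mrtfa, Tagln, Myl9 and Tpm1), against 58.0% of all genes, again near the background. None was called, where 4.84% of all genes were called higher and 4.37% lower, and 5 of the 8 had an unadjusted p below 0.05, by edgeR (all genes, 56.6%) and by DESeq2 (all genes, 54.3%) alike, also near the background. The median Log2FC of the 8 was 0.07, against 0.00 for all genes. In these libraries the 5 macrophage markers summed to 12.3 to 15.4 CPM in CD61 low and 7.59 to 8.68 CPM in CD61 high cells, mostly Cd68. Adgre1 was at 0 in all 6, and Ptprc, Aif1 and Csf1r reached at most 0.0488, 0.115 and 0.412 CPM. The part of macrophages was not tested.

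The sorted files also give TPM (transcript abundances per length and depth), which set genes side by side per length but are not TMM scaled. In CD61 low and CD61 high cells, Tpm1 had mean levels of 349 and 313 TPM, Acta2 259 and 212, Myl9 149.9 and 103.8, Srf 116 and 125, Vcl 71.8 and 61.8, Mrtfa 38.8 and 24.3, Tagln 36.99 and 15.5, Mrtfb 21.9 and 18.98, and Actg2 1.29 and 0.958. The neighbours Mrtfa and Tagln did not differ beyond their spread in CD61 low cells, with SDs of 1.49 and 7.53 TPM. In CD61 high cells Mrtfb and Tagln did not either, with SDs of 4.33 and 2.70 TPM. There the highest Mrtfb library, at 23.8 TPM, also lay above the lowest of Mrtfa, at 22.6 TPM. The ratio of Mrtfa to Mrtfb in TPM was 1.97, 1.98 and 1.47 in CD61 low and 1.04, 1.45 and 1.46 in CD61 high libraries.

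The estimates per transcript, read as a description only, differed between the groups within Tpm1 in a way that the sum over the gene does not give. Tpm1-216, annotated with 9 coding exons and 284 residues, took 42.3, 39.9 and 40.8% of the Tpm1 counts in CD61 low and 48.6, 52.6 and 56.5% in CD61 high cells. Tpm1-211, with 8 coding exons and 248 residues, took 38.1, 38.1 and 33.8% in CD61 low and 24.2, 25.6 and 23.4% in CD61 high cells. Neither pair of groups overlaps, and the longer form had the larger share in CD61 high cells. Both forms end in the same last coding exon (chromosome 9, 66930644 to 66930723, GRCm39), so they differ at their start. Tpm1-216 begins with the coding exons at 66956301 to 66956414 and 66955068 to 66955193, and Tpm1-211 with the single exon at 66950860 to 66950991, which lies inside the gene. Long tropomyosins, which start at the upstream promoter, and short ones, which start at the internal promoter, are known to bind different populations of actin filaments.

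Summed over all annotated transcripts by first coding exon, the 11 that start like Tpm1-216 took 54.8 ± 1.37% of the counts in CD61 low and 65.1 ± 1.26% in CD61 high cells (SD, n = 3 each). The 7 that start like Tpm1-211 took 42.8 ± 3.24% and 32.0 ± 0.480%. Of the 3 Tpm1 transcripts that held 5 to 95% of the counts, 2 did not overlap between the groups. These 2 are shares of the same total, so they are not independent of each other. The other transcripts of the set within these limits, Srf-201, Mrtfb-201 and Mrtfb-204, did overlap. Over all genes with at least 50 counts in every library, 14.1% of the 18230 such transcripts did not overlap. Salmon divides reads between transcripts that share exons, and the files give no error for that division, so these shares are a description with no test.

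**Figure D5:**
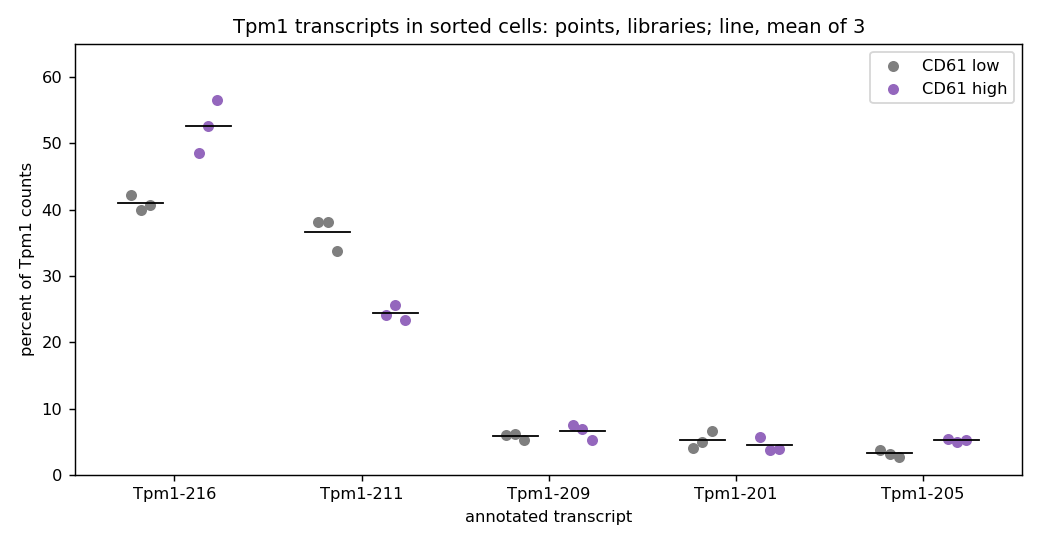
Percent of the Tpm1 counts (vertical axis, from 0) given to the 5 transcripts with the largest shares, in CD61 low (grey) and CD61 high (purple) libraries, with 1 point per library and a line at the mean of 3. Tpm1-216 rises from a mean of 41.0% to 52.6% and Tpm1-211 goes from 36.7% to 24.4%, with no overlap in either.

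Of the other genes, Srf, Mrtfa, Mrtfb, Acta2, Tagln, Myl9 and Vcl gave most of their counts to 1 transcript. Acta2-201 took at least 99.96% in each library, Myl9-201 98.7 to 99.9%, Srf-201 90.4 to 94.8% and Tagln-201 93.9 to 97.6%. Vcl-201 took at least 99.8% and Mrtfa-211 82.9 to 99.8%. Actg2 had too few counts for transcript shares, and Cnn1 had none. Tagln-203, annotated as a retained intron, took 5.96 ± 0.199% of the Tagln counts in CD61 low and 2.21 ± 0.639% in CD61 high cells (SD, n = 3 each), but the latter rest on only 2.643 to 7.599 estimated counts a library and the transcript is not among those with 5 to 95% of a gene's counts. Mrtfb-204 took 85.6 ± 8.54% and 91.7 ± 7.24% of the Mrtfb counts, with overlap between the groups.

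Among the other lists, 6 of the 8 immediate early SRF targets were higher in CD61 high cells (all genes, 19.4%) and none was lower (all genes, 16.0%), 3 were called higher (all genes, 4.84%), and the median Log2FC was 0.84. Fosb (73.4 to 235.8 CPM, Log2FC 1.68, adjusted p = 0.00041), Fos (198.1 to 457.3 CPM, Log2FC 1.21, adjusted p = 0.00076) and Nr4a1 (68.8 to 140.7 CPM, Log2FC 1.03, adjusted p = 8.3e-06) had the largest differences. The list summed to 1435 to 1646 CPM in CD61 low and 2350.46 to 2904 CPM in CD61 high cells. Before lysis the sorted cells were detached, stained and sorted, steps that the unsorted cultures did not go through, and the part of these steps was not tested.

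The 28 tested contractile and SRF target genes were split, with 8 higher (all genes, 19.4%) and 6 lower (all genes, 16.0%) in CD61 high cells and a median Log2FC of -0.04. Mylk, the kinase that phosphorylates the Myl9 protein, was called higher (58.3 to 138.5 CPM, Log2FC 1.25, adjusted p = 5.5e-05), and Acta1 (Log2FC 0.94) and Actg1 (Log2FC 0.67) were higher. Cnn3 was called lower (209 to 99.5 CPM, Log2FC -1.07, adjusted p = 2.6e-06), and Tpm3 (Log2FC -0.56) and Lima1 (Log2FC -0.47) were lower. In the RhoA to actin pathway 3 of 20 were higher (all genes, 19.4%) and 3 lower (all genes, 16.0%). Gsn was called higher (378.9 to 1085 CPM, Log2FC 1.52, adjusted p = 3.1e-07), followed by Limk2 (Log2FC 0.48) and Cfl1, cofilin (Log2FC 0.39), while Arhgef2, a RhoA exchange factor (Log2FC -0.66), Pfn2 (Log2FC -0.54) and Diaph1 (Log2FC -0.43) were lower. Of the 5 tested partners and regulators, Mical2, an oxidase of nuclear actin that raises MRTF activity, was higher (55.6 to 93.3 CPM, Log2FC 0.75, adjusted p = 2.5e-05) and Elk3 was lower (Log2FC -0.36, adjusted p = 0.0066). Among the smooth muscle markers Smtn was called higher (85.1 to 210.1 CPM, Log2FC 1.3, adjusted p = 1.8e-06) and Synm was higher (Log2FC 0.62). Lmod1 did not pass (4.33 and 3.13 CPM in CD61 low and CD61 high cells, Log2FC -0.47, adjusted p = 0.14), and Myh11 was at 0.241 and 0.136 CPM. The list summed to 91.3 to 112.9 CPM in CD61 low and 216 to 243 CPM in CD61 high cells, of which Smtn alone was 76.3 to 94.4 and 197 to 223 CPM. The pericyte markers Cspg4 (Log2FC 1.27) and Notch3 (Log2FC 0.70) were also higher, with list sums of 418 to 464 and 627 to 729 CPM, and all 8 tested osteoblast and osteocyte markers were called higher (all genes, 4.84%).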

How the data were processed

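RNA-seq of mouse Ocy454 cells was used, with 8 differentiation and 6 sorted libraries grouped by their labels. For differentiation, the authors mapped reads with STAR, counted genes with HTSeq-count and deposited CPM (genome build and versions not given in the sources used here). All values above 0 were whole multiples of 1 read within 0.01 reads, so reads could be recovered. For the sort, the authors ran Salmon on the GRCm39 transcriptome (release 104) and deposited estimated counts and TPM per transcript. Here, estimated counts were summed per gene with GENCODE M39 (115556 of 116747 transcripts matched) and rounded. Differentiation was tested with limma 3.58.1 (eBayes with a trend) on log2(CPM + 1), all 8 libraries, 12725 genes above 1 CPM in at least 1 library. The sort was tested with edgeR 4.0.16 (quasi-likelihood, TMM over all genes, 12077 genes that reached 5 normalized counts in each of the 6 libraries), with the SE taken as the Log2FC over the root of F. R 4.3.3 was used, and both tests were tested on simulated data. DESeq2 1.42.0, other scalings, filters and left-out libraries were tried. The genes, lists and test settings were chosen with earlier results of these data known. Named from other lists were at most the 3 largest Log2FC in each direction among genes that differed with a mean of at least 5 CPM, at day 14 against day 1 and in the sort, plus the actin paralogs and the nearest 5 profiles to Srf and Acta2. Other genes of the marker lists are named where they define a cell type. The study calls the differentiation libraries biological duplicates and describes 3 independent groups of cells for the sort, from which both tails were collected, so a CD61 low and a CD61 high library can share a culture. With 2 or 3 libraries a group the p-values rest on the spread between libraries of the same group, all of 1 cell line. In both tests the spread of a gene is drawn toward that of other genes, so very small p-values rest partly on those. Limma also takes 1 spread per gene over all 8 libraries. The main test of the sort did not pair the tails by culture.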

Additional observations from a re-analysis of the deposited data

How the results depend on the processing

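Each gene was retested under every alternative, and of these values 872 kept their direction and side of the threshold, 28 lost the threshold, 2 gained it and 20 changed sign, none of which had passed it. Among the day comparisons, the falls and rises of Acta2, Actg2, Tagln, Myl9 and Tpm1 and the rise of Srf at day 14 kept their direction and adjusted p below 0.01 in all of them. The call of Actg2 from day 10 to day 14 was lost without the first day 10 or the second day 14 library, and that of Myl9 from day 7 to day 10 without the second day 10 library (Log2FC -0.98). From day 7 to day 10 the number of genes higher was 3, but 1 with no filter, quantile normalization, TMM scaling, no trend or edgeR on recovered reads with TMM, and 1 to 3 with a library left out (1 without either day 7 library or the first of day 10). From day 10 to day 14 the number lower was 1, and 1 to 2 with a library left out (2 without the first of day 14). In the sort, scaling by library size alone gave 1 called and 0 higher. With a library left out, 0 to 1 were called (Tagln without the second CD61 high library) and 1 to 2 were lower (1 without the second CD61 low library). The sign changed for Vcl from day 1 to day 7 (Log2FC -0.0104 with quantile normalization) and for Mrtfb from day 1 to day 14 (0.0030 with quantile normalization, 0.0184 with TMM scaling, 0.0264 with edgeR and TMM) and from day 10 to day 14 (0.0012 with edgeR and TMM). It changed in the sort under library size alone for Mrtfb (-0.15), Acta2 (-0.28), Vcl (-0.18) and Tpm1 (-0.12), where the median of all genes was -0.29. With a library left out, values ran across 0 for Vcl from day 1 to day 7 (-0.0456 to 0.0488) and from day 10 to day 14 (-0.0085 to 0.0850), for Srf from day 1 to day 10 (-0.0697 to 0.0005), for Mrtfb from day 1 to day 10 (-0.0030 to 0.1033), from day 1 to day 14 (-0.1251 to 0.0921) and from day 10 to day 14 (-0.18 to 0.0419), and for Acta2 in the sort (-0.1090 to 0.0993). Myl9 passed under library size alone (-0.52, adjusted p = 0.00056). The cause was not tested. Levels per length were also computed with the length of each gene's main transcript, chosen after seeing the data, which put Acta2 below Tpm1 at day 1 (mean ratio 0.636 in place of 2.38). These lengths also put Srf above Vcl at day 1 (50.6 and 39.3 CPM per kilobase) and day 10 (49.4 and 35.6), where the deposited lengths put it below. Same-numbered replicates did not deviate together (correlations -0.03 to 0.06 in differentiation, -0.32, 0.22 and -0.06 in the sort), and the sources used here do not say that a number marks a shared culture, so the numbers were not taken to pair the samples. With the number as a replicate block 5, 5 and 6 genes were called at days 7, 10 and 14 against day 1, 4 from day 7 to day 10, 4 from day 10 to day 14 and 0 in the sort, the counts without it, and Srf, Mrtfa and Tagln still passed in the sort. Depth limits Cnn1 in all libraries and Actg2 in the sorted ones.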

Other observations

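The 29 genes called lower at day 10 than at day 1 and called higher again at day 14 include 25 beyond Acta2, Actg2, Tagln and Myl9. Among the 25 are 5 genes named here after their values were seen, because their products are known to sit on actin filaments, at focal adhesions or at muscle membrane junctions. Nexn, which encodes the actin-binding protein nexilin, went from a mean of 30.4 CPM at day 1 to 11.6 at day 10 and then 50.98 CPM at day 14. Jph2 (junctophilin 2) went from 21.6 to 8.94 and then 45.5 CPM, and Synpo2 (synaptopodin 2) from 6.32 to 1.89 and then 5.70 CPM. Fblim1 (migfilin) went from 32.8 to 11.3 and then 24.7 CPM, and Tgfb1i1 (Hic-5), which is in the list of other contractile and SRF target genes, from 68.8 to 25.1 and then 51.3 CPM. Nexn and Jph2 ended above their day 1 level and the other 3 below it. The other 20 are of many kinds. No test of a theme was run over the 25 genes.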
